A study of Rattus norvegicus with 12 samples.

Results

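The solute carriers are membrane proteins that move amino acids, sugars, metals, ions, vitamins and metabolites across the cell surface and across the membranes of organelles. They were chosen by gene symbol, Slc followed by a digit, and selected on the measured signal, which had to reach 150 on at least 3 of 12 arrays. Of 315 such probes on the array, for 304 genes, 147 probes for 145 genes met both conditions, and 112 of these reached 150 on every array. A total of 136 probes took their symbol from the platform annotation and 11 from the gene list of the study. Just inside the signal limit, on exactly 3 arrays, lay Slc27a3, Slc35e1 and Slc35g2, with median signals of 132, 140 and 148. Just outside it, on 2 arrays, lay 10 probes, among them Slc30a1 with a median of 145 and Slc36a1 with 136. Slc4a1ap and Slc7a6os carry the prefix by name only and encode no carrier.

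RNA of FaO cells, a rat hepatoma line that keeps many functions of hepatocytes, was hybridised to Illumina bead arrays, on which the brightness of the beads that carry a probe measures its transcript. The 3 control arrays held RNA of cells that received neither agent. A series of 7 arrays followed daily α-LA at 500 µM, with 1 array each after 6, 18, 24, 30, 42, 48 and 72 hours, and 2 arrays followed 1 dose of 0.1 µM thapsigargin (TG), which blocks the calcium pump of the endoplasmic reticulum (ER). All cells were kept in medium of reduced serum during treatment, and 3 wells were pooled for each array. The sample titles give 18 and 24 h for TG while the protocol gives 6 and 18 h, and the harvest time and any vehicle of the controls are not given in the sources used here.

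The arrays of 18, 24 and 30 h were taken as early and those of 42, 48 and 72 h as late α-LA, as the study did from these same arrays, so time points stood in as replicates. No source says that separate cultures gave the 3 controls, and a p-value here covers the scatter of these arrays alone, part of which may be technical. Differences are given on the log2 scale, as a group mean of log2 signal minus that of the other group, with the standard error (SE) and with p-values adjusted over all 9193 probes that reached 150 on at least 3 arrays. A change was called at an adjusted p under 0.05. Signals still contain background, so that a low probe shows less than its true fold, and signals of different probes cannot be set against each other. Where all arrays of the lower group were under 150, the change is given as at least N-fold against that limit. The defining markers of hepatocytes that were measured, Alb, Ttr, Tf, Serpina1, Fgb and Ahsg, stood above 150 on all 12 arrays, and all of these but Ahsg fell in early α-LA, in late α-LA and after TG. Their summed signal ranged from 95012 to 116850 in the controls, from 62161 to 81180 in early α-LA, from 54586 to 78822 in late α-LA and from 42068 to 42122 after TG, and its part in the carrier results was not tested. Of the 12 measured markers of cholangiocytes, endothelial cells, macrophages and stellate cells, 10 were under 150 on every array, Des reached it on 1 array and Sox9, which fell in all 3 comparisons, on 9. Fewer living cells and less RNA per cell cannot be told apart in such pools.

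Carriers serve several tasks in hepatocytes. Heavy chains such as Slc3a2 bring their light chains to the surface for amino acid exchange, zinc carriers of the Slc39 family move zinc into the cytosol and those of the Slc30 family move it out, and the Slc25 family shuttles nucleotides, phosphate and acids across the inner mitochondrial membrane. Several carriers of the ER and Golgi supply ATP, acetyl groups or nucleotide sugars for folding and glycosylation of secreted proteins. Amino acid carriers are well known among the genes that the factor ATF4 switches on when the ER is stressed or amino acids run short.

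Across the 147 probes, 32 were higher and 19 lower in early α-LA than in control cells, 21.8% and 12.9% of the probes, while 16.6% of all tested probes were higher and 15.7% lower. In late α-LA, 36 were higher and 30 lower, 24.5% and 20.4%, beside 19.1% and 17.7% of all tested probes. After TG, 45 were higher and 23 lower, 30.6% and 15.6%, beside 19.2% and 18.7% overall. Without the 18 h TG array fewer members were called after TG, in a fit that left a single TG array. The share of all tested probes in that fit is not given here. Among the 112 probes that reached 150 on every array, TG raised 38 and lowered 18, and among all probes of that kind 23.1% rose and 21% fell. Median differences of the members were 0.05 in early α-LA, 0.01 in late α-LA and 0.12 after TG, and 0.01, 0.02 and 0.01 over all tested probes. The shares of carriers called thus lay near the background in both α-LA groups, and after TG they lay above it for rises.

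The 3 comparisons with control cells share the control arrays. Called changes of 2-fold or more were 3 up and 3 down in early α-LA, 2.04% each, beside 1.63% and 2.92% of all tested probes. They were 4 up and 3 down in late α-LA, 2.72% and 2.04%, beside 2.63% and 3.98% of all. After TG they were 7 up and 4 down, 4.76% and 2.72%, beside 3.57% and 3.99% of all. The heat map shows the named members array by array.

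**Figure D1:**
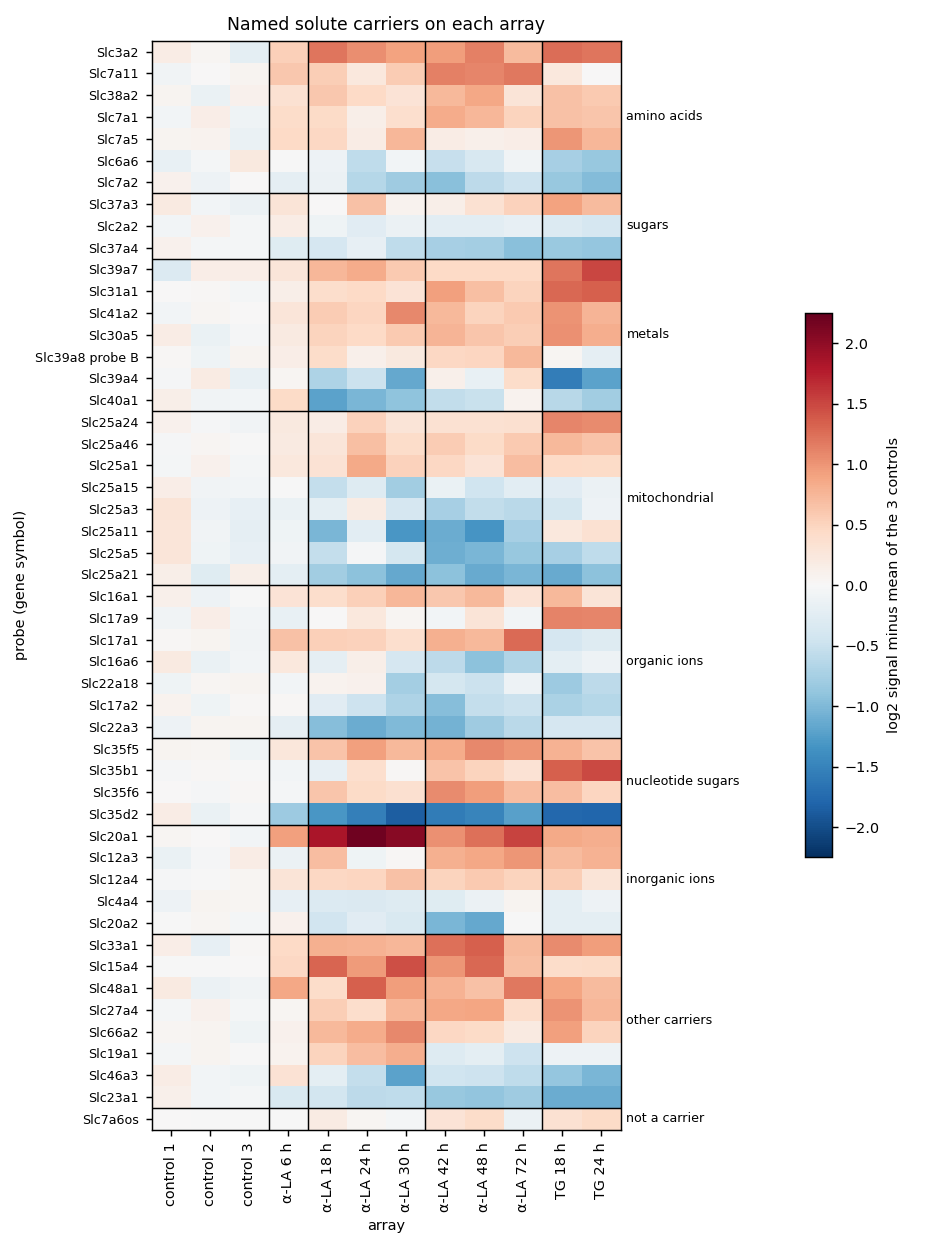
The colour is the log2 signal of each named probe minus the mean of the 3 control arrays, with 1 column per array and members grouped by substrate class, organic ions standing for organic anions and cations. Slc20a1 is the darkest red row at 18, 24 and 30 h, and Slc35d2 is blue on every treated array.

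The counts of each class below stand beside the same shares of all tested probes. These were 16.6% higher and 15.7% lower in early α-LA, 19.1% and 17.7% in late α-LA, and 19.2% and 18.7% after TG. No class count was tested against them. Of 19 amino acid carrier probes, 6 rose and 1 fell in early α-LA, 6 rose and 2 fell in late α-LA, and 7 rose and 3 fell after TG. Slc3a2, the heavy chain that several Slc7 light chains need to reach the cell surface, read 3614, 3314 and 2755 in the controls, 4636 at 6 h, 7432, 6607 and 6043 at 18, 24 and 30 h, 6169, 7004 and 5258 at 42, 48 and 72 h, and 7694 and 7353 after TG. Every treated array, the 6 h array included, lay above every control. The difference was 1.06 (SE 0.14, adjusted p = 0.00015) in early α-LA, 0.93 (SE 0.14, adjusted p = 0.00026) in late α-LA and 1.23 (SE 0.14, adjusted p = 2.4e-05) after TG. TG and early α-LA overlapped for this gene and did not pass the test of their difference (0.17, SE 0.14, adjusted p = 0.42).

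The light chains of Slc3a2 did not follow it alike. Slc7a11, the cystine and glutamate exchanger that feeds glutathione synthesis, was under the limit in the controls at 126, 133 and 138, read 201 at 6 h, 193, 156 and 196 in early α-LA, and 291, 285 and 302 in late α-LA. The TG arrays read 155 and 134 and overlapped the controls. Slc7a11 was at least 1.21-fold higher in early α-LA (adjusted p = 0.0062) and at least 1.95-fold higher in late α-LA (adjusted p = 8.2e-06), and late exceeded early by 0.69 (SE 0.10, adjusted p = 0.0024) with no overlap. After TG the difference was 0.12 (SE 0.12, adjusted p = 0.45), and TG minus early α-LA was -0.33 (SE 0.12, adjusted p = 0.052).

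Slc7a5, the exchanger for large neutral amino acids such as leucine, had the opposite emphasis. It read 834, 849 and 725 in the controls, 1590 and 1351 after TG, and only 902, 868 and 886 in late α-LA. The rise after TG was 0.87 (SE 0.15, adjusted p = 0.00044). In early α-LA it was 0.46 (SE 0.13, adjusted p = 0.021), a call that ended without control 3, the 18 h or the 30 h array (adjusted p 0.091, 0.05 and 0.079, within 0.0026 to 0.091 over all alternatives). Slc7a6, the light chain that exchanges arginine for glutamine, rose after TG by 0.54 (adjusted p = 0.0039, or 0.071 without the 18 h TG array, within 0.0035 to 0.071 over all alternatives) and stood at 0.06 and -0.28 in early and late α-LA. Slc7a7, a related light chain, was -0.61 in late α-LA (adjusted p = 0.016), which ended without control 2, control 3 or the 72 h array (adjusted p 0.06, 0.053 and 0.053, within 0.0056 to 0.06 over all alternatives).

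The uptake carriers for arginine and lysine moved against each other. Slc7a1, the widely expressed one, read 320, 366 and 312 in the controls, 592, 558 and 471 in late α-LA and 525 and 512 after TG, with all treated values of these groups above the controls. The rises were 0.70 (SE 0.12, adjusted p = 0.00077) and 0.64 (SE 0.13, adjusted p = 0.0013), while early α-LA, at 446, 363 and 430, overlapped the controls (0.31, adjusted p = 0.069). Slc7a2, the form best known from liver, fell by 0.67 (SE 0.17, adjusted p = 0.0093) in late α-LA and by 0.91 (SE 0.18, adjusted p = 0.0014) after TG. Its signals were 500, 431 and 472 in the controls, 242, 310 and 340 in late α-LA, and 260 and 236 after TG, without overlap. In early α-LA Slc7a2 fell by 0.52 (adjusted p = 0.035). That call ended without any 1 of the 3 controls, the 24 h or the 30 h array (adjusted p 0.056 to 0.14). It also ended with background subtracted and without the filter on dim probes.

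Slc38a2, which takes up small neutral amino acids with sodium, read 6299, 5426 and 6458 in the controls and 10024, 11046 and 7409 in late α-LA, a rise of 0.63 (SE 0.15, adjusted p = 0.0054). In early α-LA it rose by 0.45 (adjusted p = 0.033). That call ended without any 1 of the 3 controls, the 18 h or the 24 h array (adjusted p 0.054 to 0.13). It also ended with background subtracted. After TG it read 9549 and 9069, a rise of 0.62 (adjusted p = 0.0063) that ended without the 18 h TG array (0.59, adjusted p = 0.059, within 0.0011 to 0.059 over all alternatives). Slc6a6, the taurine carrier, fell after TG by 0.80 (SE 0.17, adjusted p = 0.0022), from 302, 330 and 394 to 202 and 189, and overlapped the controls in early and late α-LA. Of the 9 measured regulators of carriers that stood above 150, Atf4 rose in early α-LA by 0.70, in late α-LA by 0.78 and after TG by 0.97 (adjusted p = 0.00036, 0.00013 and 1.8e-05). Ddit3, Cebpb and Hif1a also rose in all 3, and Srebf1 and Nfe2l2, the factor of antioxidant genes, fell in all 3, Nfe2l2 by 0.42, 0.32 and 1.01 (adjusted p = 0.015, 0.048 and 2.8e-05). Nr1h4, a bile acid receptor, rose in late α-LA by 0.42 (adjusted p = 0.0055) and stood at 0.26 in early α-LA and 0.12 after TG (adjusted p = 0.069 and 0.46).

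RefSeq promoter windows of 300 bases, from 250 before to 50 after a gene's start, were found for 114 of the 145 genes, 122 windows in all, on the GRCr8 build. They are shown for the heavy chain, the cystine exchanger and the arginine carrier, because these rose in different groups, and the capitals mark matches on either strand to an ATF4 element (CARE, TGATGNAA) or an antioxidant element (ARE, TGACNNNGC). The windows lie at chr1:215039621-215039920 on the minus strand for Slc3a2 (the one of its 2 windows that holds a match), chr2:136668215-136668514 on the minus strand for Slc7a11 and chr12:11664238-11664537 on the plus strand for Slc7a1.
Slc3a2: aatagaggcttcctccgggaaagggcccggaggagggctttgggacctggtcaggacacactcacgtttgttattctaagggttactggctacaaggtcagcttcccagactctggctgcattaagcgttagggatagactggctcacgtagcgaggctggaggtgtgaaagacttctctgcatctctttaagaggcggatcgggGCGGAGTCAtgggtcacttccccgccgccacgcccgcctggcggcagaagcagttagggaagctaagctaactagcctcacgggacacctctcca
Slc7a11: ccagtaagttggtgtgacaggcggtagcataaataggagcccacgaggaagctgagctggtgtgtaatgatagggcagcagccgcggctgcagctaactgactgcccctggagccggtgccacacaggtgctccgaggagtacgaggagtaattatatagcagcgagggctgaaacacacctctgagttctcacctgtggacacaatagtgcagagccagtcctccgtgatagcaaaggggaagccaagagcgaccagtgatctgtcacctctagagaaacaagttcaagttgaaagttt
Slc7a1: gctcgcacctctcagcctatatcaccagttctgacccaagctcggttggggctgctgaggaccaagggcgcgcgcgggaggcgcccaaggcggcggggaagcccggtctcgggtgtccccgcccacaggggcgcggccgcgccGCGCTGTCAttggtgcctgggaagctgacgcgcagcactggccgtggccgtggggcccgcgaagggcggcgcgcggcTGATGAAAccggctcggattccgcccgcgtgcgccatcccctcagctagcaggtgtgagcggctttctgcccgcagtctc
Counted from 1 at the 5′ end of the window, the ARE match of Slc3a2 covers bases 206 to 214, and Slc7a1 holds an ARE match at 144 to 152 and a CARE match at 221 to 228. Slc7a11 holds neither set of letters in this window. CARE letters occurred in 3.28% of the members' windows and 3.98% of all 33469 windows of the table, and ARE letters in 23% and 12.1%. Counted per gene with a window, CARE letters occurred in 3.51% of the member genes and 4.16% of all genes, and ARE letters in 24.6% and 13.1%. Of 15 amino acid carrier genes with a window, 2 held CARE letters and 6 ARE letters, and these matches are a description of letters only.

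Only 5 of 13 sugar carrier probes were members, and 3 of these, Slc2a2, Slc2a5 and Slc2a8, stood near the limit, between 123 and 178 on all arrays. In the class, 1 probe fell in early α-LA, 1 fell in late α-LA, and 1 rose and 2 fell after TG. Slc37a4, which carries glucose 6-phosphate into the ER for glucose release, read 1365, 1246 and 1236 in the controls, 980, 1133 and 866 in early α-LA, 763, 751 and 666 in late α-LA, and 719 and 705 after TG. It fell by 0.82 (SE 0.11, adjusted p = 0.00016) in late α-LA and by 0.85 (SE 0.12, adjusted p = 9.9e-05) after TG, with no overlap. In early α-LA it fell by 0.38 (adjusted p = 0.024), a call that ended without any 1 of the 3 controls, the 18 h or the 30 h array (adjusted p 0.052 to 0.095, within 0.0069 to 0.095 over all alternatives). Slc37a3, of the same family, rose after TG by 0.81 (SE 0.18, adjusted p = 0.0032), from 309, 259 and 246 to 504 and 443. Slc2a2, the hepatocyte glucose carrier, read 153, 170 and 155 in the controls and 178 at 6 h, and was under 150 on every early, late and TG array. It was not called in early or late α-LA (-0.16 and -0.22, adjusted p = 0.21 and 0.071). After TG it fell by 0.34 (adjusted p = 0.012), a call that ended without the 18 h or the 24 h TG array (-0.37 and -0.31).

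Of 21 metal carrier probes, 4 rose and 4 fell in early α-LA, 6 rose and 3 fell in late α-LA, and 10 rose and 2 fell after TG. The medians of the class were -0.02, 0.09 and 0.33, beside 0.01, 0.02 and 0.01 over all tested probes. Slc39a7, which releases zinc from the ER and Golgi into the cytosol, read 736, 1009 and 1008 in the controls, 1531, 1610 and 1367 in early α-LA, 1240, 1235 and 1231 in late α-LA, and 2104 and 2568 after TG. All treated groups lay above the controls, and the 2 TG arrays were the highest of the 12. The rise was 1.36 (SE 0.14, adjusted p = 1e-05) after TG, 0.72 (SE 0.13, adjusted p = 0.0011) in early α-LA, and 0.44 (adjusted p = 0.016) in late α-LA, the last of which ended without control 1 (0.29, adjusted p = 0.053, within 0.014 to 0.053 over all alternatives).

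Slc31a1, the high-affinity copper importer, read 476, 485 and 463 in the controls, 628, 645 and 588 in early α-LA, 895, 757 and 669 in late α-LA, and 1166 and 1212 after TG. No treated group overlapped the controls or another treated group. It rose after TG by 1.32 (SE 0.12, adjusted p = 2.6e-06) and in late α-LA by 0.69 (SE 0.11, adjusted p = 0.00045). Early α-LA gave 0.38 (adjusted p = 0.019), a call that ended without control 3 or the 18 h array (adjusted p 0.068 and 0.05, within 0.0094 to 0.068 over all alternatives).

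Slc30a5, which with Slc30a6 loads zinc into the early secretory pathway, rose in all 3 comparisons. It read 1571, 1265 and 1371 in the controls, 1972, 1911 and 2093 in early α-LA, 2369, 2146 and 2041 in late α-LA, and 2847 and 2476 after TG. The rises were 0.51 (SE 0.10, adjusted p = 0.0031), 0.64 (SE 0.10, adjusted p = 0.00055) and 0.93 (SE 0.12, adjusted p = 4.2e-05). Its partner Slc30a6 went the other way under α-LA, from 629, 628 and 625 in the controls to 397, 519 and 450 and then 501, 443 and 449, and fell by 0.47 (SE 0.11, adjusted p = 0.0059) and 0.44 (SE 0.11, adjusted p = 0.0076). At 667 and 650 after TG it did not pass the test against the controls (0.07, SE 0.11, adjusted p = 0.68). Slc41a2, a magnesium carrier under 150 in all controls, was at least 1.57-fold higher in early α-LA, at least 1.46-fold higher in late α-LA and at least 1.77-fold higher after TG (adjusted p = 0.0026, 0.0055 and 0.00059).

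A zinc importer and the iron exporter fell in early α-LA and stood within or above the controls at 72 h. Slc39a4, the zinc importer of the cell surface, read 784, 912 and 713 in the controls and 826 at 6 h, then 496, 568 and 361 in early α-LA and 867, 716 and 1067 in late α-LA. TG gave 270 and 349, the lowest 2 of the 12 arrays. It fell by 0.77 (SE 0.18, adjusted p = 0.0065) in early α-LA and by 1.38 (SE 0.20, adjusted p = 0.00014) after TG, and late α-LA overlapped the controls (0.13, SE 0.18, adjusted p = 0.63) and exceeded early α-LA by 0.90 (SE 0.18, adjusted p = 0.0085).

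Slc40a1, or ferroportin, the iron exporter, read 3038, 2639 and 2656 in the controls and 3728 at 6 h, the highest of the 12 arrays. It then read 1199, 1366 and 1486 in early α-LA, 1886, 1960 and 2945 in late α-LA, and 1796 and 1614 after TG. It fell by 1.04 (SE 0.16, adjusted p = 0.00046) in early α-LA, and late exceeded early by 0.72 (SE 0.16, adjusted p = 0.013), the 72 h array lying within the controls. After TG it fell by 0.70 (adjusted p = 0.0052), a call that ended without the 24 h TG array (-0.63, adjusted p = 0.06, within 0.00053 to 0.06 over all alternatives). Both probes of Slc39a8, an importer of zinc and manganese, rose in late α-LA, probe B by 0.56 (SE 0.11, adjusted p = 0.0018). Probe A gave 0.41 (adjusted p = 0.02), which ended without control 1, control 3 or the 72 h array (adjusted p 0.07, 0.051 and 0.052, within 0.006 to 0.07 over all alternatives).

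Mt1, a metallothionein that binds zinc and copper, was spread widely in the controls, at 12134 ± 5106 (SD, n = 3). It fell by 2.46 in late α-LA (adjusted p = 0.00056) and did not pass in early α-LA (-0.79, adjusted p = 0.16) or after TG (1.03, adjusted p = 0.077). Mtf1, the factor that switches on metallothioneins, was not called in any of the 3 (0.13, 0.17 and 0.09, adjusted p = 0.34, 0.17 and 0.52). The promoter of Slc30a5 is shown because this gene rose in all 3 groups and its window, chr2:33709849-33710148 on the minus strand, holds both an ARE match at bases 156 to 164 and overlapping matches at 101 to 107 and 102 to 108 to a metal response element (MRE, TGCACNC or TGCGCNC), again in capitals.
Slc30a5: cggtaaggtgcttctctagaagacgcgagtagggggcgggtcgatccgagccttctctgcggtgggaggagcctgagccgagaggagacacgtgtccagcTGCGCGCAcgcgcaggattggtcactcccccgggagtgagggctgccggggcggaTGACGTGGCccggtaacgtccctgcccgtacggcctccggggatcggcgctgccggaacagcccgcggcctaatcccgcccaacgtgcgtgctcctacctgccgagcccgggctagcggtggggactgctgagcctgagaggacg
MRE letters occurred in 36.1% of the members' windows and 24.2% of all windows. Counted per gene with a window, they occurred in 36.8% of the member genes, 26.3% of all genes and 7 of the 16 metal carrier genes.

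**Figure D2:**
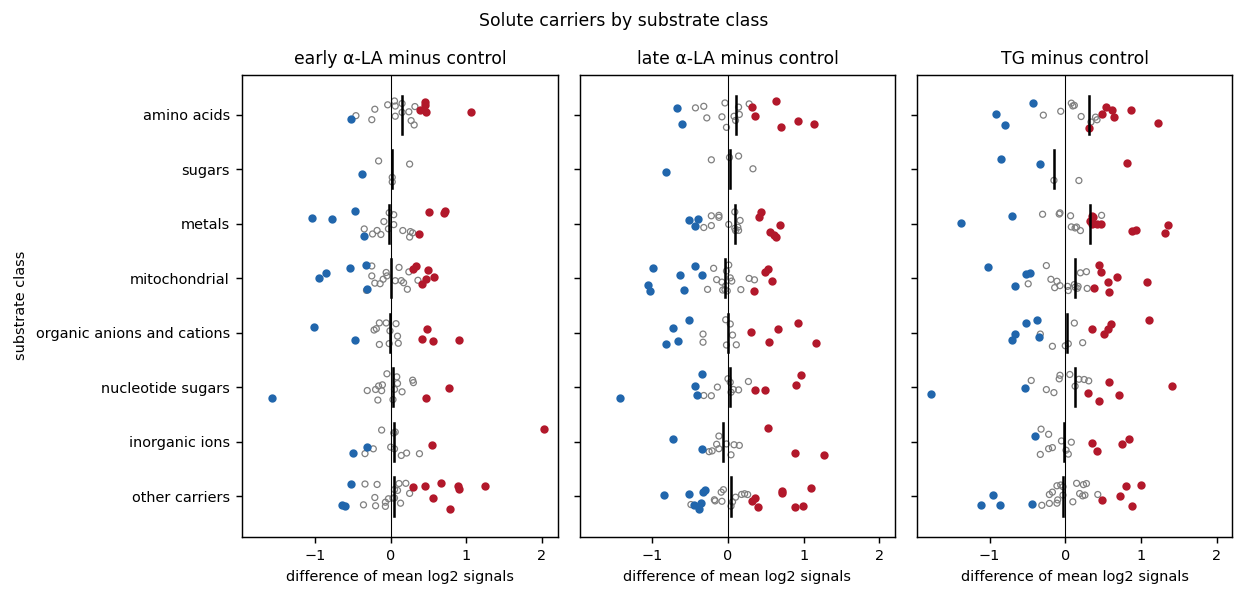
Each point is 1 probe, placed by the difference of mean log2 signals from the controls in early α-LA, late α-LA and TG, with filled points called at an adjusted p under 0.05 (red higher, blue lower), open points not called, and a bar at the median of each class. The metal carriers have 10 red points after TG against 4 in early α-LA, and their median moves from -0.02 to 0.33.

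Of 26 mitochondrial carrier probes, 6 rose and 5 fell in early α-LA, 4 rose and 7 fell in late α-LA, and 7 rose and 4 fell after TG. Slc25a21, the carrier of oxoadipate in lysine and tryptophan breakdown, read 779, 585 and 780 in the controls, 413, 374 and 320 in early α-LA, 375, 324 and 346 in late α-LA, and 323 and 376 after TG. It fell by 0.95 (SE 0.13, adjusted p = 0.00029), 1.03 (SE 0.13, adjusted p = 0.00012) and 1.02 (SE 0.15, adjusted p = 0.00012), and no treated array from 18 h on overlapped the controls.

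Carriers that exchange ADP for ATP or bring in phosphate were lower late, though the late call of Slc25a4 depended on single arrays. Slc25a5, an ADP and ATP exchanger, read 22000, 16936 and 16043 in the controls, 12496, 17872 and 13714 in early α-LA and 8454, 8948 and 10068 in late α-LA. It fell by 0.99 (SE 0.15, adjusted p = 0.00037) in late α-LA, with late below both other groups, while early α-LA overlapped the controls (-0.32, adjusted p = 0.13). After TG, at 10800 and 12288, it fell by 0.66 (adjusted p = 0.0065), which ended without the 18 h TG array (-0.56, adjusted p = 0.08, within 0.0047 to 0.08 over all alternatives). Slc25a3, the phosphate carrier, fell by 0.64 in late α-LA (SE 0.16, adjusted p = 0.007), from 16043, 12164 and 11549 to 7821, 8914 and 8562. Slc25a4, a further ADP and ATP exchanger, fell by 0.52 after TG (SE 0.11, adjusted p = 0.0025), from 16936, 13921 and 15084 to 10096 and 11160. Its late difference of -0.35 (adjusted p = 0.022) was not called without control 1, control 3, the 42 h or the 48 h array. Those fits gave adjusted p values of 0.088, 0.057, 0.05 and 0.078.

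Slc25a11, which exchanges oxoglutarate for malate, read 2175, 1701 and 1571 in the controls and 832, 719 and 1077 in late α-LA, a fall by 1.06 (SE 0.24, adjusted p = 0.0051). TG left it at 2111 and 2281, within or above the controls (0.29, SE 0.26, adjusted p = 0.42). In early α-LA it read 883, 1533 and 727, a fall by 0.85 (adjusted p = 0.019) that ended without control 1, the 18 h or the 30 h array (adjusted p 0.067, 0.064 and 0.082, within 0.00073 to 0.082 over all alternatives). Slc25a15, the ornithine carrier of the urea cycle, fell by 0.54 in early α-LA (SE 0.13, adjusted p = 0.0099) and stood at -0.27 in late α-LA (adjusted p = 0.14).

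Slc25a24, a calcium-regulated carrier of ATP-Mg and phosphate, was under 150 in all controls and read 292 and 287 after TG, at least 1.93-fold higher (adjusted p = 6.7e-06). The early and late α-LA arrays read from 154 to 195, and the TG arrays lay above them all. Early and late α-LA were at least 1.14-fold and 1.16-fold higher (adjusted p = 0.029 and 0.019). The early call ended without control 2, control 3, the 24 h or the 30 h array (adjusted p 0.056 to 0.11). It also ended when only the groups compared entered the fit. The late call ended without control 2 or control 3 (adjusted p 0.06 and 0.077). Slc25a46, an outer membrane protein of mitochondrial shape, rose by 0.46 (SE 0.11, adjusted p = 0.0075), 0.53 (SE 0.11, adjusted p = 0.0026) and 0.69 (SE 0.12, adjusted p = 0.00045), from 364, 379 and 366 in the controls to values between 447 and 613. Slc25a1, which exports citrate for fatty acid synthesis, rose in early α-LA by 0.57 (SE 0.14, adjusted p = 0.0088), from 2644, 2903 and 2631 to 3431, 4896 and 3905. In late α-LA it rose by 0.49 (adjusted p = 0.016), which ended without control 3 or the 72 h array (adjusted p 0.055 and 0.056). After TG it rose by 0.44 (adjusted p = 0.031). The TG call ended without control 1, control 3 or either TG array, and with background subtracted. Mpc1, a subunit of the mitochondrial pyruvate carrier that has another gene prefix, fell by 0.87, 0.42 and 0.59 (adjusted p = 0.00017, 0.013 and 0.0026), while its partner Mpc2 stood at -0.13, 0.00 and -0.00 and was not called (adjusted p = 0.48, 1 and 0.99).

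Of 16 organic anion and cation carrier probes, 4 rose and 2 fell in early α-LA, 5 rose and 4 fell in late α-LA, and 5 rose and 5 fell after TG. Slc22a3, a carrier of organic cations, read 416, 466 and 466 in the controls, 232, 208 and 225 in early α-LA, 214, 259 and 296 in late α-LA, and 347 and 346 after TG. None of these groups overlapped the controls. It fell by 1.02 (SE 0.12, adjusted p = 8.5e-05) in early and by 0.82 (SE 0.12, adjusted p = 0.00026) in late α-LA. It stood at -0.37 after TG (adjusted p = 0.033), a call that ended without control 2, control 3 or either TG array (adjusted p 0.089 to 0.14, within 0.0096 to 0.14 over all alternatives), and TG exceeded early α-LA by 0.65 (SE 0.13, adjusted p = 0.0022). Slc22a18, a further member of the family, was lower after TG by 0.70 (log2 -0.70, adjusted p = 0.018), which ended without control 2, control 3 or either TG array (adjusted p 0.05 to 0.15, within 0.00055 to 0.15 over all alternatives).

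A run of 3 neighbouring genes of the Slc17 family, carriers of urate and phosphate in liver and kidney, split. Slc17a3 read 175, 162 and 188 in the controls, 236, 214 and 253 in early α-LA, 290, 267 and 270 in late α-LA, and 122 on both TG arrays. It rose by 0.42 (SE 0.10, adjusted p = 0.0068) and 0.66 (SE 0.10, adjusted p = 0.00031) under α-LA and was at least 1.16-fold lower after TG (adjusted p = 0.0015). Slc17a1 read 163, 167 and 152 in the controls and 279, 266 and 387 in late α-LA, a rise of 0.93 (SE 0.13, adjusted p = 0.00022), and was under 150 on both TG arrays, 124 and 132 (adjusted p = 0.087). Its early rise of 0.48 (adjusted p = 0.017) ended without control 3 or the 18 h array (adjusted p 0.067 and 0.052). Slc17a2, the third of the run, fell by 0.66 (SE 0.14, adjusted p = 0.0032) in late α-LA and by 0.67 (SE 0.15, adjusted p = 0.003) after TG, from 456, 408 and 440 to 224, 298 and 310 and to 265 and 279. In early α-LA it fell by 0.47 (adjusted p = 0.024). That call ended without control 1, control 3 or the 30 h array (adjusted p 0.068, 0.07 and 0.098), and with background subtracted.

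Slc17a9, which loads ATP into vesicles, was called after TG and in neither α-LA group (0.09 and 0.06, adjusted p = 0.61 and 0.76). It read 149, 174 and 150 in the controls, 342 and 338 after TG, and from 151 to 193 on the 6 α-LA arrays from 18 h on. The rise after TG was 1.11 (SE 0.13, adjusted p = 2.1e-05), and TG exceeded early α-LA by 1.02 (SE 0.13, adjusted p = 0.00012). Slc16a1, which carries lactate and pyruvate with protons, rose by 0.56 (SE 0.13, adjusted p = 0.0063) and 0.54 (SE 0.13, adjusted p = 0.0064) under α-LA, from 1173, 1002 and 1081 to 1429, 1571 and 1828 and to 1654, 1786 and 1333. After TG it rose by 0.51 (adjusted p = 0.021). That call ended without control 2 (0.46, adjusted p = 0.069) or the 18 h TG array (0.30). Its partner Bsg, which brings it to the surface, fell in early α-LA by 0.54 (adjusted p = 0.0031) and was not called in late α-LA (-0.06) or after TG (-0.22). Slc16a6, of the same family, fell by 0.73 in late α-LA (SE 0.15, adjusted p = 0.0024). Of the 7 Slco organic anion carriers that were measured, which the symbol rule does not take in, 5 were under 150 on all arrays, Slco4a1 reached it on 1 and Slco1a5 on 3.

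The Slc35 family, many of whose members are carriers of the ER and Golgi, is labelled nucleotide sugars in the figures. Not every member carries such sugars. Of its 17 probes, 2 rose and 1 fell in early α-LA, 4 rose and 4 fell in late α-LA, and 5 rose and 2 fell after TG. Slc35d2, a Golgi carrier of UDP-linked sugars, had the deepest fall of all members in each of the 3 comparisons with the controls. It read 1237, 999 and 1082 in the controls, 626 at 6 h, 444, 377 and 303 in early α-LA, 368, 396 and 471 in late α-LA, and 325 and 321 after TG, so that every treated array lay below every control. The falls were 1.57 (SE 0.15, adjusted p = 1.9e-05), 1.43 (SE 0.15, adjusted p = 2e-05) and 1.77 (SE 0.16, adjusted p = 2.6e-06).

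Slc35b1, which brings ATP into the ER for protein folding, read 3635, 3743 and 3685 in the controls, 3248, 4815 and 3750 in early α-LA, 5786, 5191 and 4631 in late α-LA, and 9370 and 10267 after TG. It rose by 1.41 (SE 0.15, adjusted p = 9.4e-06) after TG, the largest rise of any member there, and early α-LA overlapped the controls (0.08, SE 0.14, adjusted p = 0.73). In late α-LA it rose by 0.49 (adjusted p = 0.015), which ended without the 42 h array (0.41, adjusted p = 0.067, within 0.0039 to 0.067 over all alternatives). Slc33a1, the carrier of acetyl-CoA into the ER, rose in all 3 comparisons, by 0.78 (SE 0.15, adjusted p = 0.0023), 1.10 (SE 0.15, adjusted p = 0.00017) and 1.0 (SE 0.16, adjusted p = 0.0003), from 824, 657 and 762 in the controls to values between 1219 and 1899. Slc35f5 rose by 0.77 (SE 0.11, adjusted p = 0.00023), 0.96 (SE 0.11, adjusted p = 3.1e-05) and 0.71 (SE 0.11, adjusted p = 0.00029), and Slc35f6 by 0.47 (SE 0.11, adjusted p = 0.0081), 0.90 (SE 0.11, adjusted p = 8.6e-05) and 0.58 (SE 0.13, adjusted p = 0.0024).

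Slc20a1, a sodium-coupled phosphate importer of the cell surface, had the largest rise of any member under α-LA. It read 3171, 3081 and 2956 in the controls, 5847 at 6 h, 10988, 13990 and 12655 in early α-LA, 6238, 7282 and 8826 in late α-LA, and 5566 and 5418 after TG. No 2 of these groups overlapped, and early α-LA was the highest. The rise was 2.02 (SE 0.13, adjusted p = 2e-06) in early α-LA, 1.27 (SE 0.13, adjusted p = 2.1e-05) in late α-LA and 0.84 (SE 0.14, adjusted p = 0.00037) after TG. Late α-LA was lower than early by 0.76 (late minus early -0.76, SE 0.13, adjusted p = 0.0044), and TG minus early α-LA was -1.18 (SE 0.14, adjusted p = 7e-05).

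Its relative Slc20a2 was called in the late comparison alone of the 3. It read 1175, 1215 and 1145 in the controls, 576 and 528 at 42 and 48 h and 1175 again at 72 h, and its late difference of -0.73 (adjusted p = 0.027) ended without any 1 of the 3 controls, the 42 h or the 48 h array (adjusted p 0.058 to 0.12, within 1.6e-05 to 0.12 over all alternatives). Among the remaining ion carriers, Slc12a4, a potassium and chloride cotransporter, rose in early α-LA by 0.54 (SE 0.09, adjusted p = 0.00077) and in late α-LA by 0.53 (SE 0.09, adjusted p = 0.00067). After TG it rose by 0.42 (SE 0.11, adjusted p = 0.0065), a call that ended without the 18 h TG array (0.29). Slc12a3, a sodium and chloride cotransporter best known from the kidney, rose in late α-LA by 0.88 (SE 0.18, adjusted p = 0.0021), from 196, 214 and 243 to 375, 394 and 429. After TG it rose by 0.75 (SE 0.19, adjusted p = 0.006), a call that ended without the 24 h TG array (0.71). In early α-LA it overlapped the controls (0.21, adjusted p = 0.42). Slc4a4, a sodium and bicarbonate cotransporter, stood at -0.31 in early α-LA (adjusted p = 0.038), which ended without control 2, control 3, the 18 h, the 24 h or the 30 h array (adjusted p 0.073 to 0.13, within 0.016 to 0.13 over all alternatives). Of the 14 probes of this class, 2 rose and 2 fell in early α-LA, 3 rose and 2 fell in late α-LA, and 4 rose and 1 fell after TG.

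Of the 27 probes of other families, which carry vitamins, heme, lipids or peptides among others, 8 rose and 3 fell in early α-LA, 8 rose and 7 fell in late α-LA, and 5 rose and 4 fell after TG. Slc19a1, the reduced folate carrier, read 459, 493 and 473 in the controls, 672, 770 and 840 in early α-LA, 388, 409 and 342 in late α-LA, and 440 and 439 after TG. It was the member with the largest difference between late and early α-LA, -1.0 (SE 0.11, adjusted p = 0.00086), with the groups on opposite sides of the controls. The early rise was 0.67 (SE 0.11, adjusted p = 0.00063). The late fall by 0.33 (adjusted p = 0.033) ended without any 1 of the 3 controls, the 42 h or the 72 h array (adjusted p 0.052 to 0.1, within 0.021 to 0.1 over all alternatives).

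Slc23a1, a sodium-coupled importer of vitamin C, read 435, 384 and 393 in the controls, 301, 267 and 273 in early α-LA, 223, 218 and 231 in late α-LA, and 186 on both TG arrays. It fell by 0.53 (SE 0.09, adjusted p = 0.0011), 0.85 (SE 0.09, adjusted p = 2.8e-05) and 1.12 (SE 0.10, adjusted p = 2.4e-06), and none of the 4 groups overlapped. Slc15a4, a lysosomal carrier of histidine and peptides, read 1022, 1025 and 1036 in the controls, 2538, 2005 and 2825 in early α-LA, 2050, 2509 and 1647 in late α-LA, and 1375 and 1386 after TG. It rose by 1.24 (SE 0.16, adjusted p = 0.00013) and 0.99 (SE 0.16, adjusted p = 0.00045) under α-LA, and TG was lower than early α-LA (-0.82, SE 0.16, adjusted p = 0.0027).

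Slc48a1, which releases heme from endosomes and lysosomes, was 713 at 6 h, above all controls at 452, 357 and 371. It rose by 0.90 (SE 0.21, adjusted p = 0.0067) in early and 0.88 (SE 0.21, adjusted p = 0.0064) in late α-LA, with values from 520 to 991. The rise after TG of 0.80 (adjusted p = 0.012) ended without the 18 h TG array (0.71, adjusted p = 0.1, within 0.00066 to 0.1 over all alternatives). Slc27a4, which takes up and activates fatty acids, rose by 0.56 (SE 0.14, adjusted p = 0.0089), 0.71 (SE 0.14, adjusted p = 0.0018) and 0.88 (SE 0.15, adjusted p = 0.00055). Slc46a3, a lysosomal carrier, fell after TG by 0.95 (SE 0.21, adjusted p = 0.003), from 341, 292 and 286 to 167 and 150. In early α-LA it fell by 0.65 (adjusted p = 0.025). That call ended without any 1 of the 3 controls or the 30 h array (adjusted p 0.05 to 0.08). It also ended with background subtracted and when only the groups compared entered the fit. Slc66a2 rose in early α-LA by 0.89 (SE 0.12, adjusted p = 0.00016) and after TG by 0.72 (SE 0.14, adjusted p = 0.0014). In late α-LA it rose by 0.36 (adjusted p = 0.028). That call ended without control 3, the 42 h or the 48 h array (adjusted p 0.11, 0.1 and 0.089).

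The order of events over time was followed next. At 6 h, a single array with no replicate check, no member stood 2-fold from the control mean on the log2 scale, the extremes being 0.93 for Slc20a1 and -0.82 for Slc35d2. Of the 147 probes, 59 were above all 3 controls and 38 below all 3, 40.1% and 25.9%, beside 25.9% and 28.6% of all tested probes. Late and early α-LA differed for 8 members in the direction of higher late and 11 of lower late, 5.44% and 7.48% of the members, beside 6.43% and 7.23% of all tested probes. Of these 19 calls, 7 held with each array left out in turn, namely Slc7a11, Slc39a4, Slc40a1 and Slc49a4, higher late, and Slc20a1, Slc19a1 and Slc66a2, lower late. Slc49a4 read 363, 481 and 342 early and 679, 726 and 594 late, a difference of 0.76 (SE 0.13, adjusted p = 0.004), and Slc66a2 gave -0.52 (SE 0.12, adjusted p = 0.013). With either the 42 h or the 48 h array left out, the count of members called was 10 instead of 19. The shares of all tested probes in those fits are not given here.

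**Figure D3:**
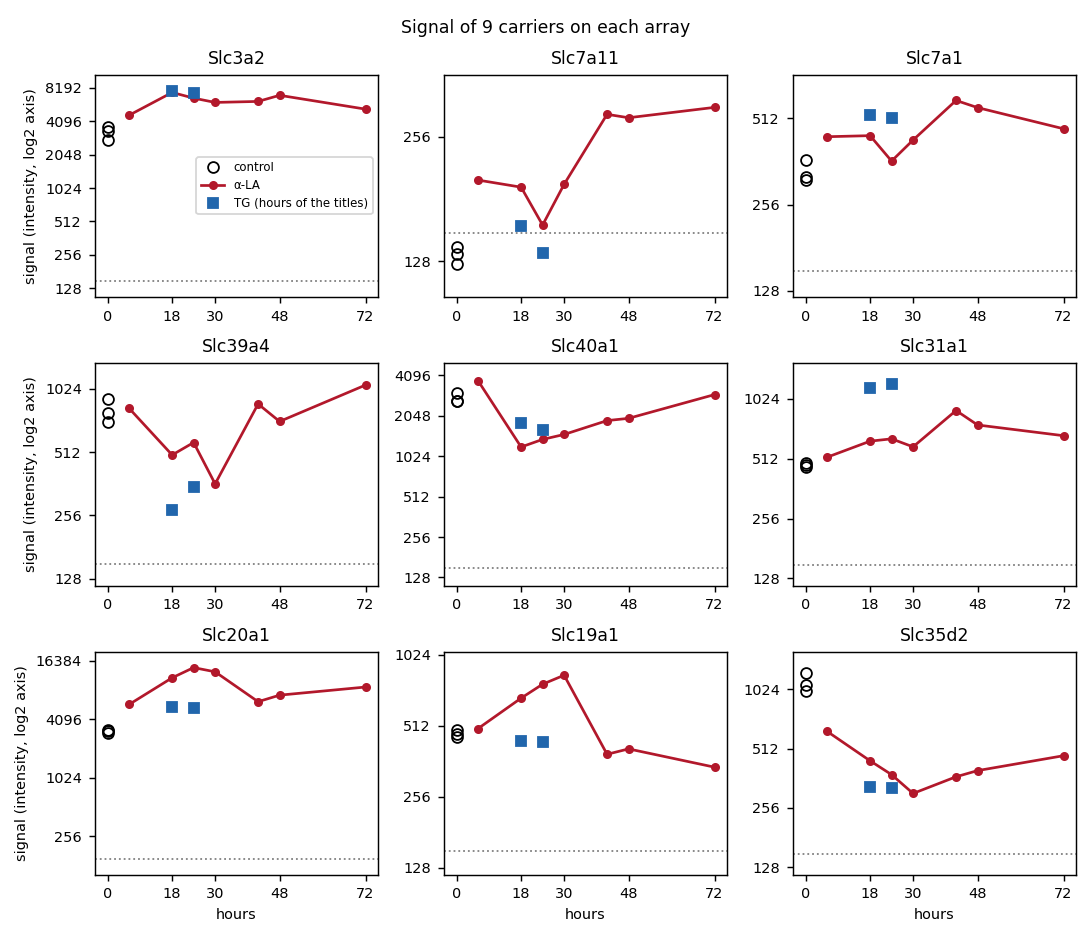
Signal of 9 carriers on each array against hours, on a log2 axis, with open circles for the 3 controls drawn at 0, red points joined over the α-LA series, blue squares for TG at the hours of the titles, and a dotted line at 150. Slc39a4 and Slc40a1 dip at 18 to 30 h and stand near the controls at 72 h, while Slc7a11 is highest from 42 h on.

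TG was last set against early α-LA directly, a comparison without control arrays. TG was higher for 28 members and lower for 18, 19% and 12.2% of the members, beside 13.6% and 13.9% of all tested probes. Of the 46 calls, 21 held with each array left out in turn. Fewer members were called without the 18 h or the 24 h TG array, in fits that left a single TG array. The matching shares of all tested probes are not given here. The metal carriers gave 10 of the 28 higher calls and 1 of the 18 lower calls, with a class median of 0.34. The lower call, Slc39a4 (-0.60, adjusted p = 0.04), ended without either TG array, the 18 h or the 24 h α-LA array (adjusted p 0.06 to 0.32, within 0.011 to 0.32 over all alternatives). Of these 10, 5 held with each array left out, namely Slc31a1 (0.94, SE 0.12, adjusted p = 0.0001), Slc39a3 (0.82, SE 0.15, adjusted p = 0.0017), Slc39a13 (0.70, SE 0.10, adjusted p = 0.00031), Slc30a2 (0.55, SE 0.11, adjusted p = 0.0022) and Slc30a6 (0.54, SE 0.11, adjusted p = 0.0036).

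The signals of 3 of these zinc carriers show how the groups lay against the controls. Slc39a3, a zinc importer, read 283, 329 and 329 in the controls, 263, 292 and 192 in early α-LA, and 412 and 454 after TG. Slc39a13, which handles zinc inside the secretory pathway, read 303, 313 and 294 in the controls, 253, 231 and 232 in early α-LA, and 396 and 380 after TG. Slc30a2, which moves zinc into vesicles, read 344, 357 and 367 in the controls, 317, 315 and 345 in early α-LA, and 504 and 449 after TG. Against the controls TG gave 0.47, 0.36 and 0.42 for Slc39a3, Slc39a13 and Slc30a2 (adjusted p = 0.028, 0.014 and 0.0073). None of the 3 calls held with each array left out in turn. That of Slc39a3 ended without control 1 (0.40, adjusted p = 0.084). Without the 18 h TG array the differences were 0.54, 0.33 and 0.34, and all 3 calls ended. Without the 24 h TG array the calls of Slc39a3 (0.40) and Slc39a13 (0.39) ended. Early α-LA overlapped the controls for Slc39a3 and Slc30a2 (adjusted p = 0.084 and 0.35) and lay below them for Slc39a13.

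Outside the metals, TG exceeded early α-LA most for Slc35b1 (1.34, SE 0.15, adjusted p = 4.5e-05). Slc25a11 followed at 1.14 (adjusted p = 0.0054), a call that ended without the 24 h TG array (1.09, adjusted p = 0.056, within 0.00015 to 0.056 over all alternatives). The carriers of glutathione and glycine into mitochondria, Slc25a39 (0.81, SE 0.11, adjusted p = 0.00024) and Slc25a38 (0.73, SE 0.11, adjusted p = 0.00051), were also higher after TG. On the other side lay Slc20a1, Slc17a3 (at least 1.56-fold lower after TG, adjusted p = 4.8e-05), Slc25a25, Slc15a4, Slc17a1 (at least 1.49-fold lower, adjusted p = 0.0011) and Slc19a1 (-0.79, SE 0.11, adjusted p = 0.00031). Of these, Slc25a25, a calcium-regulated carrier of ATP-Mg and phosphate (-0.86, SE 0.29, adjusted p = 0.045), lost its call without either TG array, the 18 h or the 30 h α-LA array (adjusted p 0.095 to 0.22, within 0.011 to 0.22 over all alternatives).

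**Figure D4:**
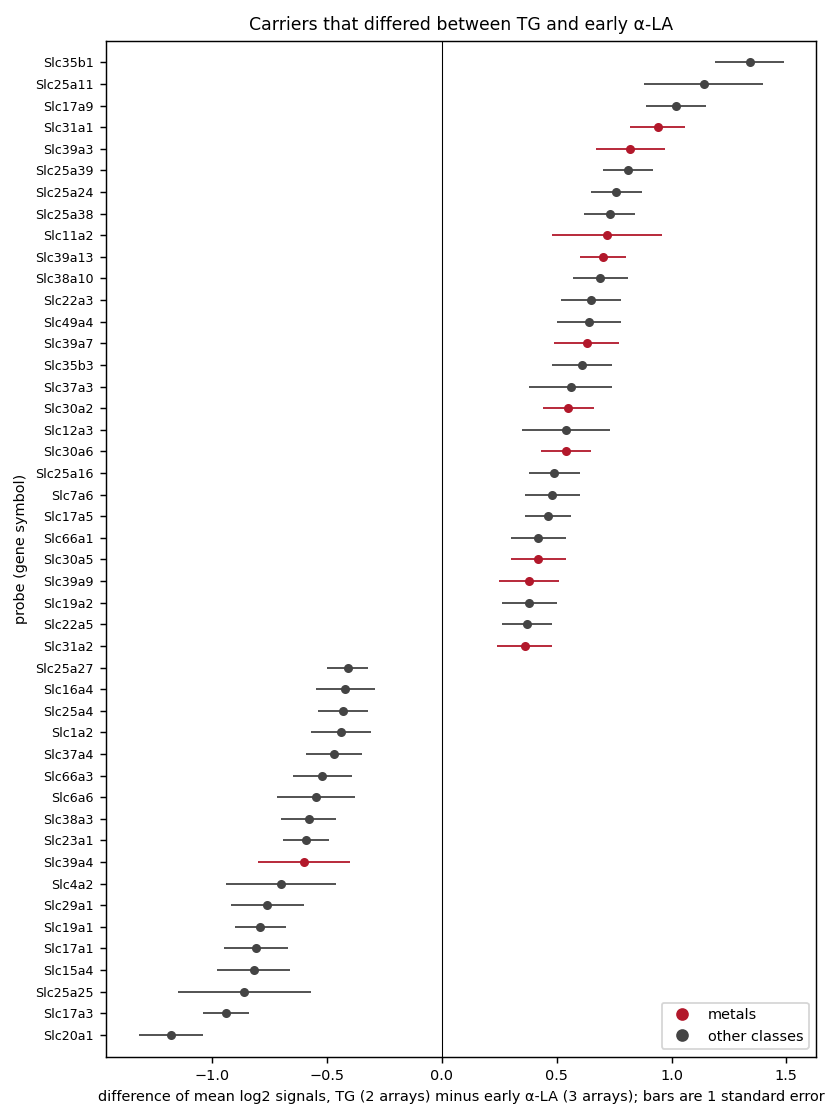
Each point is the difference of mean log2 signals, TG (2 arrays) minus early α-LA (3 arrays), for the 46 carriers called, with bars of 1 SE and metal carriers in red. Of the 11 red points, 10 lie to the right of 0, and Slc39a4 at -0.60 lies to the left.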

How the data were processed

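Total RNA of 12 samples of FaO cells was hybridised to Illumina rat bead arrays, 1 array per sample. The deposited intensity values were read out by the authors with BeadStudio 3.0.19.0, as the submitters' processing notes name it, and quantile normalized in BRB-ArrayTools. No source used here states a background subtraction, and array medians of 132.7 to 132.8 show that background remains. Between 8409 and 8422 probes per array reached 150. The small number of arrays limits the precision of every value.

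From these values, log2 signals of the 9193 probes at 150 or more on at least 3 arrays were fitted with limma 3.58.1 (lmFit and eBayes) in R 4.3.3, with Benjamini-Hochberg adjustment over all of them and a threshold of 0.05. The early and late α-LA groups and the difference between them came from 1 fit of 9 arrays with the controls, and both TG comparisons from a fit of 11 arrays. The fits were checked on simulated data with known changes. Time points stood in as replicates in the α-LA groups.

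The members, substrate classes, marker lists and lists of related genes were chosen with earlier results of these data known. Members were named where they changed 2-fold or were among the 4 largest calls of their class in a comparison with the controls. The rule also took in every probe of a named gene and, as examples of a known role, genes such as Slc7a6, Slc7a7 and Slc25a4. Slc17a3, Slc25a25, Slc25a38, Slc25a39, Slc30a2, Slc30a6, Slc39a3, Slc39a13 and Slc49a4 fall outside this rule and were chosen after their values were seen. Some members that the rule names are not reported here. Alternatives were array centring, background subtraction, a filter on every array or none, another variance model, other samples in the fit and each array left out in turn. A further 24 columns of non-normalized signals carry names that match no sample and were not used here.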

Additional observations from a re-analysis of the deposited data

Results flagged for a closer look

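The change from the controls differed between late and early α-LA for 13 of the named carriers, by limma's test of the difference itself. Late was higher for Slc39a4 (0.90), Slc40a1 (0.72), Slc7a11 (0.69), Slc12a3 (0.68), Slc17a1 (0.46) and Slc35f6 (0.43), all on the log2 scale. Late was lower for Slc19a1 (-1.0), Slc20a1 (-0.76), Slc25a5 (-0.67), Slc16a6 (-0.58), Slc66a2 (-0.52), Slc37a4 (-0.44) and Slc23a1 (-0.32).

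For 6 of the 13, Slc39a4, Slc40a1, Slc7a11, Slc19a1, Slc20a1 and Slc66a2, the difference passed the threshold with each array left out in turn. It ended without the 24 h or the 48 h array for Slc16a6 (adjusted p 0.07 and 0.097) and without the 42 h or the 48 h array for Slc25a5 (adjusted p 0.063 and 0.05). For Slc12a3, Slc17a1, Slc35f6, Slc37a4 and Slc23a1 it ended without any 1 of 4 or 5 arrays (adjusted p 0.051 to 0.12). Early and late arrays did not overlap for any of the 13, which adds no separate support because the 13 were chosen on these same arrays.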

How the results depend on the processing

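Of 150 calls of named carriers, 102 held under every alternative that kept their probe, 48 ended under at least 1 and none reversed. The filter on every array kept the probes of 131 of these calls, so the remaining calls were not checked under it. With each array left out in turn, the count of members called was 35 to 52 in early α-LA (51 with all arrays), 49 to 64 in late α-LA (66), 10 to 25 for late versus early (19), 39 to 59 after TG (68) and 24 to 54 for TG versus early α-LA (46). Late versus early gave 10 calls without the 42 h or the 48 h array, and 10 when only the groups compared entered the fit. Without the 18 h TG array, TG gave 39 calls and TG versus early α-LA 24, and the latter gave 28 without the 24 h TG array. The cause of these changes was not tested, beyond the smaller number of arrays. The shares of all tested probes in these fits are not given here, so the counts do not show a change particular to the carriers. Over the pooled 18 to 72 h arrays, 30 members were higher and 21 lower, beside 15.5% and 15.1% of all tested probes. No paired analysis was possible by replicate because the labels share no replicate numbers across groups. TG and early α-LA share 18 and 24 h in their titles, though not in the protocol. An alternative added after the data were seen, and not among the ranges given per gene, took those 4 arrays alone with the hour as a block. TG versus early α-LA then gave 39 calls among the 147 members, beside 18.9% of all tested probes. Of the 46 calls, 34 were still called. All 46 kept their sign, which is no separate support because the 4 arrays are among those that gave the calls. Low signals over background limit the folds of dim probes.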
